A study of Bos taurus with 14 samples.

Results

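Keratins 7, 8, 18 and 19, encoded by KRT7, KRT8, KRT18 and KRT19, were followed in bovine conceptuses, the embryo with its surrounding membranes, recovered on Day 15 of gestation. They are 4 of the 9155 named genes on an Affymetrix bovine expression array, and they were taken by gene symbol, each from the probe sets that the platform annotation gives that symbol alone. Each had 1 such probe set: Bt.1745.1.S1_at for KRT18, Bt.12663.1.S1_at for KRT19, Bt.28009.1.A1_at for KRT8 and Bt.8105.1.S1_at for KRT7. No gene of the 4 thus had a pair of probe sets to compare. RNA was measured in 14 Holstein conceptuses, 1 array each. The embryos came from superovulated donor cows inseminated with semen of 1 Holstein bull, were recovered and graded on Day 6.5, and were transferred to recipient heifers by grade in groups of 2 to 6. Of the conceptuses, 3 came from Grade 3 embryos (2 males and 1 female) and 11 from Grade 1 embryos. The Grade 1 set held 5 long (1 male and 4 females), 5 short (2 males and 3 females) and 1 with no recorded length, a male. Which conceptuses shared a dam or a recipient is not stated, so p-values treat them as independent.

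Keratins are the intermediate filament proteins of epithelial cells. A filament forms only when a type I keratin pairs with a type II keratin, and in simple, single-layered epithelia the usual pairs are keratin 18 or 19 (type I) with keratin 8 or 7 (type II). In mammalian embryos the trophectoderm, the outer layer that becomes trophoblast, is the first epithelium to form and carries these simple keratins, which are therefore used as trophoblast markers. In cattle the trophoblast elongates into a filament around Day 15, and keratin networks bear the mechanical load of such sheets.

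Expression values are log2 values made by RMA, in which 1 unit is a doubling of signal. Over the 24016 probe sets the means had a lower quartile of 3.91, a median of 5.66 and an upper quartile of 8.23. The lowest single value on any array was 2.23 and the highest 14.61. Pairwise correlations between arrays lay between 0.984 and 0.997. Grade 1 long replicate 2 and Grade 1 short replicate 5 had the lowest mean correlation with the other arrays, 0.991 and 0.990. The 3′ minus 5′ signal of the actin control probe sets, a measure of RNA integrity, was 1.34 to 1.84 in long and 1.29 to 1.75 in short conceptuses, and it was 1.48 to 1.60 in Grade 3 and 1.29 to 1.84 in Grade 1. Each probe set binds with its own affinity, so differences are read between conceptuses. Where levels of several genes are given side by side, they describe probe set signal and not relative amounts of RNA.

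Some trophoblast markers were among the brightest genes of the arrays, and others were not. Interferon tau IFNT2 averaged 14.53, the pregnancy-associated glycoprotein PAG11 14.48, the Kunitz protein TKDP1 14.44 and the prostaglandin synthase PTGS2 13.31. PAG2 averaged 13.8, TKDP4 12.44 and PAG8 12.13. Lower were ETS2 at 9.92, PAG12 at 8.44, TEAD4 at 8.25 and ELF5 at 6.64. Of the 12 measured genes among 19 trophoblast markers, TKDP2 was the dimmest at 4.74. The endometrial epithelium that lines the uterus also makes simple keratins, and its markers were mixed. The progesterone receptor PGR averaged 3.88, the estrogen receptor ESR1 3.43, the oxytocin receptor OXTR 3.17, the uterine serpin SERPINA14 3.21 and the lactoferrin gene LTF 3.79, all below the lower quartile. PAX8 averaged 4.88, IHH 5.12 and the mucin MUC1 6.68; MUC1, which is above the median of all probe sets, stood at 0.55 ± 0.20 (log2, SE; limma adjusted p = 0.128) in long over short conceptuses.

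The comparison of long with short conceptuses within Grade 1 asked what accompanies elongation. None of the 4 keratins passed the test between the lengths (0 of 4; limma, adjusted p under 0.05), where 6.57% of all probe sets did. KRT19 came closest and was 0.19 ± 0.07 (log2, SE; 1.14 fold) in long over short conceptuses, at adjusted p = 0.112. KRT18 and KRT7 stood at 0.01 ± 0.05 and 0.08 ± 0.16, and KRT8 at -0.14 ± 0.17, with 5 conceptuses in each group. In whole conceptuses, fewer cells of a type and less RNA per cell cannot be told apart. At an unadjusted p under 0.05, KRT19 was the 1 keratin of the 4 to pass, and 22% of all probe sets did. The values of long and short conceptuses overlapped for each of the 4, whereas they did not overlap in 8.42% of probe sets.

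**Figure D1:**
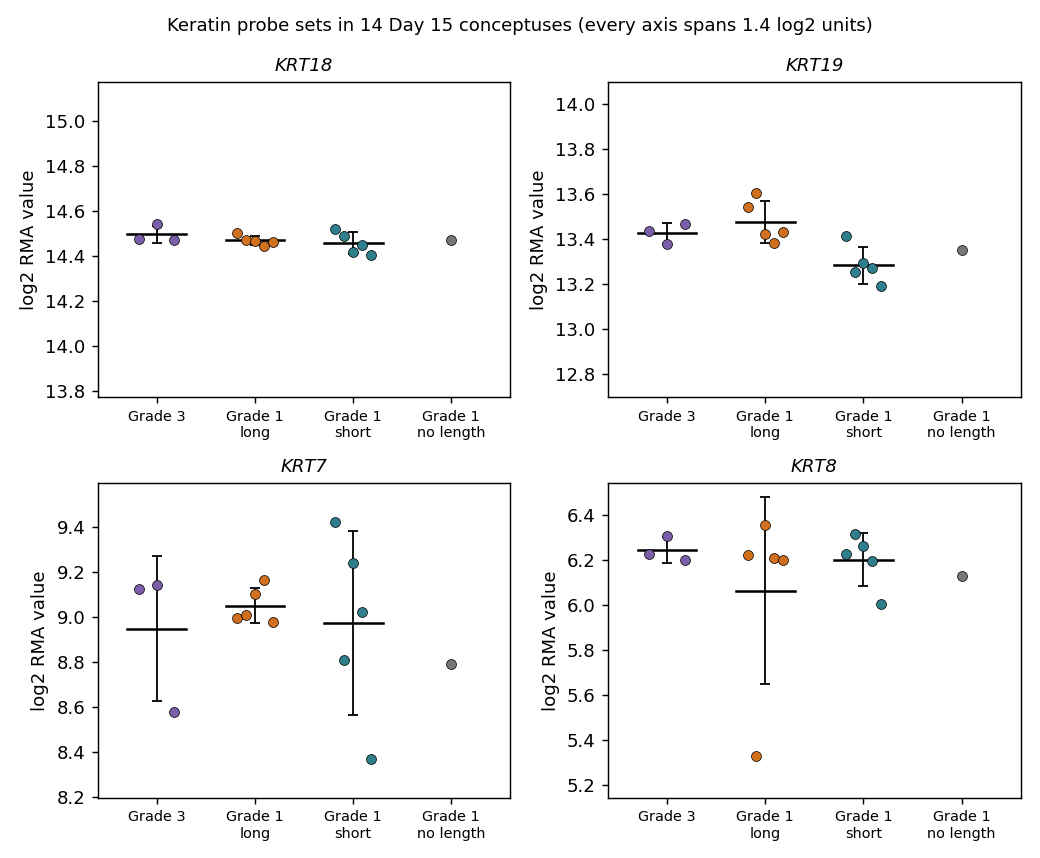
Log2 RMA value of each keratin (vertical axes, each spanning the same number of log2 units) in every conceptus of each group; points are conceptuses, horizontal lines group means and bars the SD. KRT18 stayed between 14.40 and 14.54 in all groups, KRT19 was lowest in short conceptuses, KRT7 spread most within the short and Grade 3 groups, and KRT8 had 1 low value, 5.33, among the long conceptuses.

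Keratin 18 is the type I partner of keratin 8 in simple epithelia. KRT18 measured 14.50, 14.47, 14.47, 14.45 and 14.46 in long replicates 1 to 5, against 14.52, 14.49, 14.42, 14.45 and 14.40 in short replicates 1 to 5. All 5 long values lay inside the range of the short ones. The mean was 14.47 ± 0.02 in long conceptuses, against 14.46 ± 0.05 in short ones (SD, 5 each), and limma gave adjusted p = 0.918. The 95% interval of the difference ran from -0.10 to 0.13, or from 0.933 to 1.09 fold.

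The KRT18 probe set was among the 4 brightest of 24016 on every array, between rank 1 and rank 4. Its SD over the 14 conceptuses was 0.0362, and 0.225% of probe sets had a smaller one; the median SD was 0.154. RMA gives the brightest probes of every array nearly the same values, so a difference in KRT18 RNA could be compressed. KRT18 had an SD of 0.02 in long and 0.05 in short conceptuses. Other probe sets at this height had SDs of 0.02 and 0.24 (TKDP1), 0.02 and 0.08 (IFNT2) and 0.01 and 0.09 (PAG11). What part the height had in the small SD of KRT18 was not tested. The sign of the small KRT18 difference between the lengths turned with another quantile normalisation (-0.07) and with arrays centred on their medians (-0.00435).

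Keratin 19 is a type I keratin that nearly lacks the tail domain of its relatives. KRT19 measured 13.54, 13.60, 13.42, 13.38 and 13.43 in long replicates 1 to 5, against 13.41, 13.25, 13.30, 13.27 and 13.19 in short replicates 1 to 5. The overlap came from short replicate 1 at 13.41, which lay above long replicate 4; the other short conceptuses lay below all 5 long ones. Short replicate 1 is the conceptus for which 1 label gives short and another gives long.

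KRT19 averaged 13.48 ± 0.09 in the 5 long conceptuses, against 13.28 ± 0.08 in the 5 short ones (SD), and the 95% interval of the difference was 0.05 to 0.34, or 1.03 to 1.26 fold. With the disputed conceptus left out the difference was 0.22 (adjusted p = 0.0683), and with it counted as long 0.21 (adjusted p = 0.0911). The difference passed in 1 setting, limma with an intensity trend and robust moderation (adjusted p = 0.0395). Over its 23 alternatives the adjusted p ran from 0.0395 to 0.376. The highest came without long replicate 2 and short replicate 5, which held the highest and the lowest KRT19 value; the difference was then 0.14. Sample titles carry a leading number whose meaning is not stated, and 2 of these numbers covered both lengths. In the one with 2 long and 1 short conceptus KRT19 was 13.57 in long and 13.25 in short, a difference of 0.32. In the one with 1 long and 2 short conceptuses it was 13.42 in long and 13.28 in short, a difference of 0.14.

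Keratin 8 is the type II partner of keratin 18. KRT8 measured 6.22, 5.33, 6.36, 6.21 and 6.20 in long replicates 1 to 5, against 6.23, 6.32, 6.26, 6.20 and 6.01 in short replicates 1 to 5. Apart from long replicate 2 the long and short values ran side by side. The mean was 6.06 ± 0.42 in long conceptuses, against 6.20 ± 0.12 in short ones (SD, 5 each), and limma gave adjusted p = 0.697 with a 95% interval from -0.50 to 0.23. Without long replicate 2 the difference was 0.05 (adjusted p = 0.812).

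The KRT8 probe set lay near the middle of the array, at ranks 10249 to 12953 of 24016, and its name carries an A in its last part where those of the other 3 keratins carry an S. What these letters mark is not given in the sources used here. The 9438 probe sets with an A had a median level of 4.48 and the 14578 with an S one of 6.59. Where both letters occurred for 1 transcript number (423 cases), the A version was the lower one in 51.8%. How well the KRT8 probe set reports KRT8 RNA was not tested, so each KRT8 result here holds for that probe set only.

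Keratin 7, a type II keratin of ducts and of trophoblast, was the most variable of the 4 among the short conceptuses. KRT7 measured 9.0, 9.01, 9.10, 9.16 and 8.98 in long replicates 1 to 5, against 9.42, 8.81, 9.24, 9.02 and 8.37 in short replicates 1 to 5. The short conceptuses held both the highest and the lowest value of all 14, and the long ones lay between them. The SD was 0.08 around a mean of 9.05 in long and 0.41 around a mean of 8.97 in short conceptuses (n = 5 each); the difference in spread was not tested. limma gave adjusted p = 0.836 for the means, with a 95% interval from -0.28 to 0.43, or 0.826 to 1.35 fold. Without short replicate 5 the difference was -0.07 (adjusted p = 0.786).

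**Figure D2:**
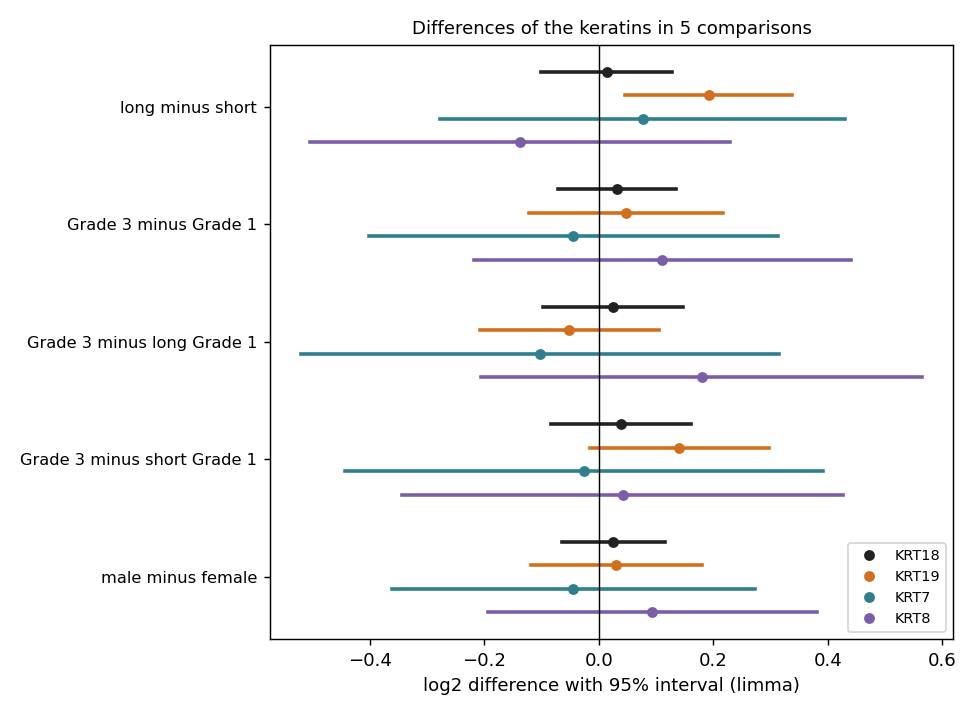
Log2 difference (horizontal axis) of each keratin in 5 comparisons; points are limma estimates and lines their 95% intervals. The interval of KRT19 in long minus short conceptuses, 0.05 to 0.34, was the only one of the 20 that did not contain 0, and the intervals of KRT18 were the narrowest in each comparison. The intervals are not adjusted for the number of probe sets. KRT19 did not pass for length (limma adjusted p = 0.112), where 22% of all probe sets had an unadjusted p under 0.05.

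Differences between pairs of keratin probe sets were also taken within each array; their size carries the probes' own affinities and was not read as a ratio of RNA levels. KRT19 minus KRT18, both type I, ranged from -1.07 to -0.87 in long and from -1.24 to -1.11 in short conceptuses, and the groups did not overlap. The mean was -0.99 ± 0.08 in long conceptuses, against -1.17 ± 0.06 in short ones (SD, 5 each). Grade 3 conceptuses ran from -1.16 to -1.01 and the one with no length stood at -1.12. Of the 6 pairs this was the 1 without overlap. It was singled out after its values were seen and was not tested. The share of all probe set pairs without overlap is not given here, so 1 of 6 cannot be set beside it. KRT18 varied so little near the top of the scale that the KRT19 minus KRT18 difference largely repeats the KRT19 values. It does not show that both genes changed differently. The lack of overlap itself came from KRT18. KRT19 was 13.41 in short replicate 1 and 13.38 in long replicate 4, where KRT18 was 14.52 and 14.45.

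The levels of the partners KRT18 and KRT8 over the 14 arrays had a Pearson r of 0.17 and a Spearman's rho of 0.40. Those of KRT19 and KRT7 had 0.30 and 0.07, those of KRT18 and KRT7 0.40 and 0.13, and those of KRT7 and KRT8 0.18 and 0.52. KRT18 and KRT19 had 0.44 and 0.35, and KRT19 and KRT8 -0.43 and -0.11. A low KRT8 value, 5.33 in long replicate 2, weighs more on r than on rho. These are descriptions over arrays that share their normalisation.

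**Figure D3:**
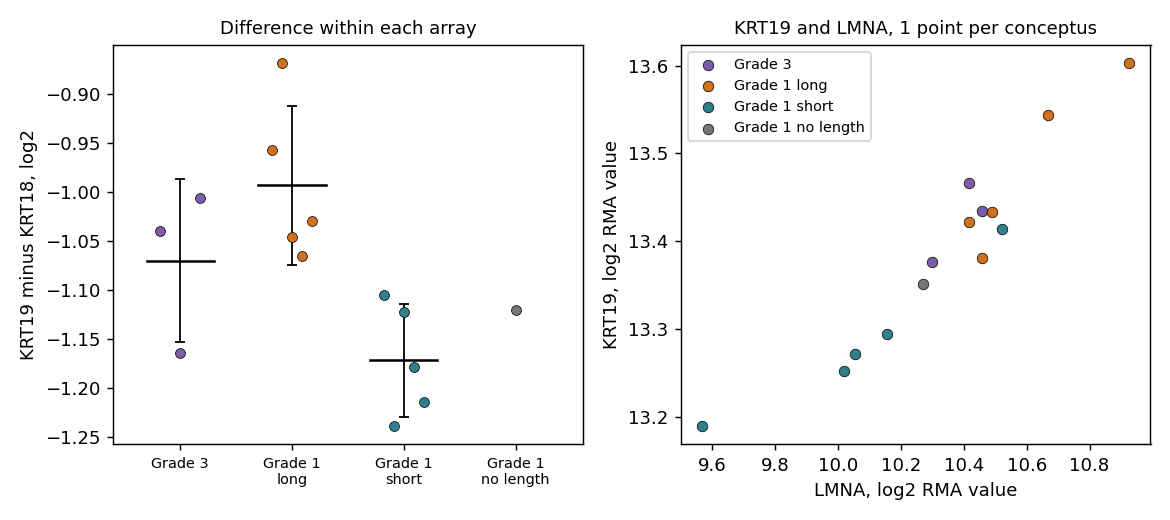
Left, KRT19 minus KRT18 within each array (vertical axis, log2) by group; points are conceptuses, lines means and bars the SD. Right, KRT19 (vertical axis) against LMNA (horizontal axis), both log2 RMA values, 1 point per conceptus; the arrays with higher LMNA had higher KRT19 (r = 0.95), and short replicate 1 lay among the long conceptuses.

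The comparison of grades asked whether conceptuses from poorer embryos differed on Day 15. None of the 4 keratins passed between Grade 3 and Grade 1 (0 of 4), where limma called 0% of probe sets and 5.06% had an unadjusted p under 0.05; none of the 4 keratins did. KRT18 was 0.03 ± 0.05 (log2, SE) in Grade 3 over Grade 1, KRT19 0.05 ± 0.08, KRT8 0.11 ± 0.15 and KRT7 -0.04 ± 0.17, with 3 and 11 conceptuses. Each had adjusted p = 0.999. Of the 7 leading numbers of the sample titles, 0 covered both grades, and the 3 Grade 3 conceptuses carried 2 of these numbers. In any comparison with Grade 3, a difference of grade thus cannot be told apart from one of title number.

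KRT18 measured 14.47, 14.54 and 14.47 in Grade 3 replicates 1 to 3, against a lowest value of 14.40 and a highest of 14.52 in Grade 1. KRT19 measured 13.43, 13.38 and 13.47 in Grade 3, against 13.19 to 13.60 in Grade 1. KRT8 measured 6.23, 6.31 and 6.20 in Grade 3, against 5.33 to 6.36 in Grade 1. Except for KRT18 in Grade 3 replicate 2, every Grade 3 value of these 3 genes lay inside the Grade 1 range. The groups overlapped for each of the 4 keratins, while 0.554% of all probe sets had no overlap.

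KRT7 measured 9.12, 9.14 and 8.57 in Grade 3 replicates 1 to 3, against 8.37 to 9.42 in Grade 1. Grade 3 replicate 3 stood below the other two, and without it the difference was 0.14 in place of -0.04. The 95% interval for KRT7 ran from -0.40 to 0.31, which spans 0.757 to 1.24 fold, while that for KRT18 ran from -0.07 to 0.14 and that for KRT19 from -0.12 to 0.22.

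Grade 3 was also set beside each length class in a fit of all 14 conceptuses. limma called 0% of probe sets in both of these comparisons; 9.06% had an unadjusted p under 0.05 against long and 10.6% against short Grade 1. All 4 keratins overlapped in both, where 7.14% of probe sets had no overlap against long and 6.08% none against short Grade 1. For KRT19 the Grade 3 mean of 13.43 ± 0.05 (SD, n = 3) lay between those of the length classes. KRT19 in Grade 3 was -0.05 ± 0.07 (SE) relative to long Grade 1 (adjusted p = 0.874) and 0.14 ± 0.07 relative to short Grade 1 (adjusted p = 0.513; unadjusted p = 0.0723). These comparisons share the long and short conceptuses with the comparison of lengths. The other 3 keratins had adjusted p between 0.814 and 0.924 against long and between 0.844 and 0.975 against short Grade 1.

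Sex was compared over all 14 conceptuses with grade in the model, and 0.362% of probe sets passed. None of the 4 keratins did, nor at an unadjusted p under 0.05, where 8.03% of probe sets passed. Males and females overlapped for all 4, while 0.491% of probe sets had no overlap. KRT8 stood at 0.09 ± 0.13 (log2, SE) in males over females, KRT19 at 0.03 ± 0.07, KRT18 at 0.03 ± 0.04 and KRT7 at -0.04 ± 0.15, with 6 males and 8 females and adjusted p from 0.919 to 0.971. The model held neither length nor title number, and most title numbers held a single sex. A difference of sex thus cannot be fully told apart from one of title number.

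Among the other keratins of the array, 1 changed with length. Of 14 genes with 22 probe sets, counted by the brightest probe set of each gene, 0 rose and 1 fell in long conceptuses, where 9.5% of the 9155 genes passed in either direction; the median difference of the 14 was -0.06, beside -0.03 for all genes. The gene that fell was KRT10, a type I keratin known from the upper layers of the epidermis. KRT10 measured 7.32, 7.14, 7.22, 7.44 and 7.29 in long replicates 1 to 5, against 7.86, 7.51, 8.03, 7.74 and 8.56 in short replicates 1 to 5, and the groups did not overlap. It fell by 0.66 ± 0.16 (log2, SE; limma adjusted p = 0.0351). Leaving out conceptuses 1 at a time ended this call in 7 of 10 fits, and the adjusted p then reached 0.0875 (long replicate 2 omitted). KRT10 in Grade 3 measured 7.94, 7.86 and 8.07, all above the 5 long conceptuses, and was 0.67 ± 0.17 (SE) relative to long Grade 1 with adjusted p = 0.307.

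**Figure D4:**
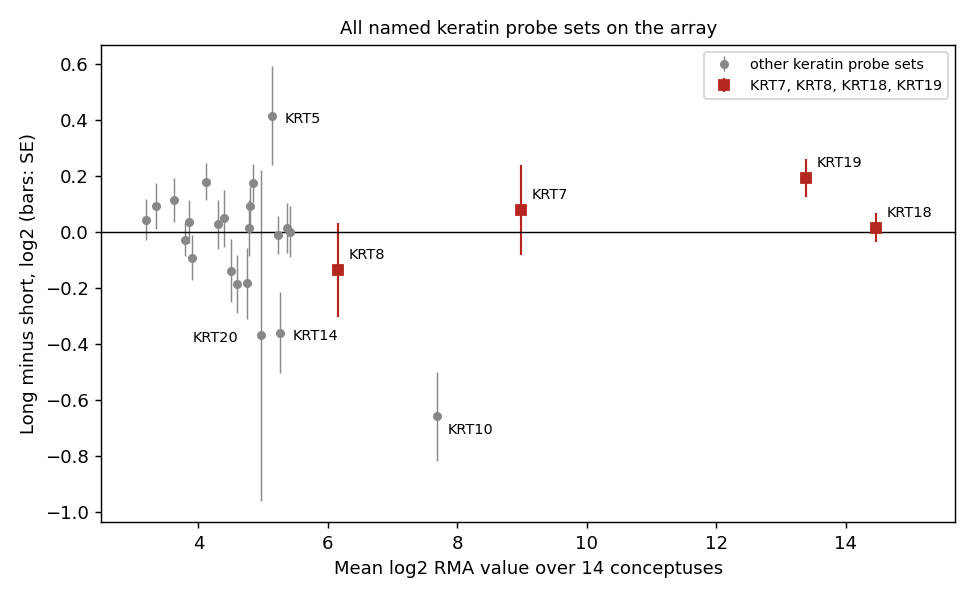
Long minus short difference (vertical axis, log2; bars are SE) against the mean log2 RMA value over 14 conceptuses (horizontal axis) for every keratin probe set with 1 gene symbol. The 22 probe sets of other keratins (circles) had means of 3.19 to 7.68, and KRT10, the brightest of them, was the one that passed.

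The remaining keratins were dim. KRT14, a type I keratin of basal epidermal cells, stood at -0.36 ± 0.15 (log2, SE; adjusted p = 0.168) in long over short conceptuses, with a mean of 5.26 over all arrays. Its usual type II partner KRT5 had 2 probe sets that stood apart, at 0.41 ± 0.18 and 0.01 ± 0.09, neither past the test. KRT15, which lies beside KRT19 on chromosome 19, had a mean of 3.79 in its brighter probe set and a difference of -0.03.

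KRT20, a type I keratin known from gut and bladder epithelium, varied most from conceptus to conceptus. Its values were 4.41, 5.58 and 7.94 in Grade 3, against 5.87, 4.07, 4.07, 4.84 and 3.74 in long, 4.17, 4.09, 7.24, 4.30 and 4.64 in short and 4.61 in the conceptus with no length. Grade 3 replicate 3 and short replicate 3 stood far above the rest, and most others lay near or below the median of all probe sets. By the brightest probe set of each gene, KRT20 had the smallest p of the other keratins for grade, at 1.28 ± 0.68 (log2, SE; adjusted p = 0.999), and 0 of the 14 passed there. Over all 22 probe sets the smallest was that of a dimmer KRT3 probe set, at 0.29 ± 0.08 (adjusted p = 0.817), while the brightest of the 4 KRT3 probe sets stood at -0.05. Without Grade 3 replicate 3 the KRT20 difference was 0.30. KRT19 had no such high values in those 2 conceptuses (13.47 and 13.30).

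Other intermediate filament genes and genes of the proteins that tie keratins to junctions were counted next. Of 10 measured genes of the nuclear lamins, vimentin, neurofilaments and their relatives, 0 rose and 1 fell with length, a share near the 9.5% of all genes. The 1 that fell was LMNB1, a lamin of the nuclear envelope, which measured 9.56, 9.53, 9.65, 9.64 and 9.51 in long replicates 1 to 5, against 9.97, 9.84, 10.15, 10.04 and 10.05 in short replicates 1 to 5. LMNB1 fell by 0.43 ± 0.07 (log2, SE; limma adjusted p = 0.00937), and passed in all 10 fits that omitted 1 conceptus but not in 4 of all 23 alternatives (adjusted p up to 0.11). LMNA, the other main lamin gene, was 0.53 ± 0.16 higher in the mean of long conceptuses without passing (limma adjusted p = 0.0674). It passed at 0.64 (adjusted p = 0.0249) with short replicate 1 left out, the lowest adjusted p of its 23 alternatives. In 18 of these it did not pass, and the adjusted p reached 0.207. The mesenchymal filament gene VIM averaged 3.93, near the lower quartile of all probe sets.

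Of 11 measured genes of desmosomes and plakin linkers, which anchor keratin filaments at the cell border, none passed for length or grade. PKP4, a plakophilin relative, had the smallest p in both, at 0.16 ± 0.07 (log2, SE; adjusted p = 0.208) in long over short and -0.19 ± 0.09 (adjusted p = 0.981) in Grade 3 over Grade 1 conceptuses. The list's median difference for length was -0.00566. Of 17 measured genes of proteins that bind or modify keratins, none passed either. The chaperone gene HSPA8 stood at -0.18 ± 0.06 (adjusted p = 0.108) for length. The kinase gene CSNK1A1 stood at 0.14 ± 0.06 (adjusted p = 0.97) for grade, where only 3 of its 5 probe sets had that sign. BFSP2, a lens filament gene, had the smallest p for grade among the filament genes, at 0.08 ± 0.09 (adjusted p = 0.999).

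Transcription factors tied to simple keratin genes in human or mouse were measured for 14 of 21 genes, of which 1 rose and 0 fell with length, again near or under the 9.5% of all genes. The 1 was TFAP2A, a regulator of trophoblast and epithelial genes. TFAP2A measured 10.89, 10.87, 10.91, 10.81 and 10.83 in long replicates 1 to 5, against 10.63, 10.55, 10.44, 10.69 and 10.10 in short replicates 1 to 5, and the groups did not overlap. It rose by 0.38 ± 0.10 (log2, SE; limma adjusted p = 0.045) and did not pass in 8 of the 10 fits that omitted a conceptus (adjusted p up to 0.0982, long replicate 2 omitted). KRT10, LMNB1 and TFAP2A all failed to pass with the disputed conceptus counted as long or with the title number as a fixed block. The median of the 14 factors was -0.19, beside -0.03 for all genes, and 13 of them were lower on average in long conceptuses. That sign was shared by 3 of the 5 probe sets of JUN and 1 of the 2 of GRHL1. The lean of the list was not tested. None passed for grade, where ELF5, a trophoblast factor, stood at 0.27 ± 0.16 (adjusted p = 0.999). For sex, where 0.535% of the 9155 genes passed, 1 rose and 0 fell in males over females. It was ETS2, which activates interferon tau genes in cattle, at 0.79 ± 0.16 (log2, SE; limma adjusted p = 0.04995), and it did not pass in 3 of 6 alternatives (adjusted p up to 0.0578). Long replicates 1 (male) and 2 (female) share a title number and had ETS2 of 10.05 and 10.07. The other long conceptuses, females with other title numbers, had 9.16 to 9.23. Grade 3 replicates 2 (female) and 3 (male), which also share a number, had 9.84 and 10.30. For ETS2, sex and title number cannot be fully told apart.

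**Figure D5:**
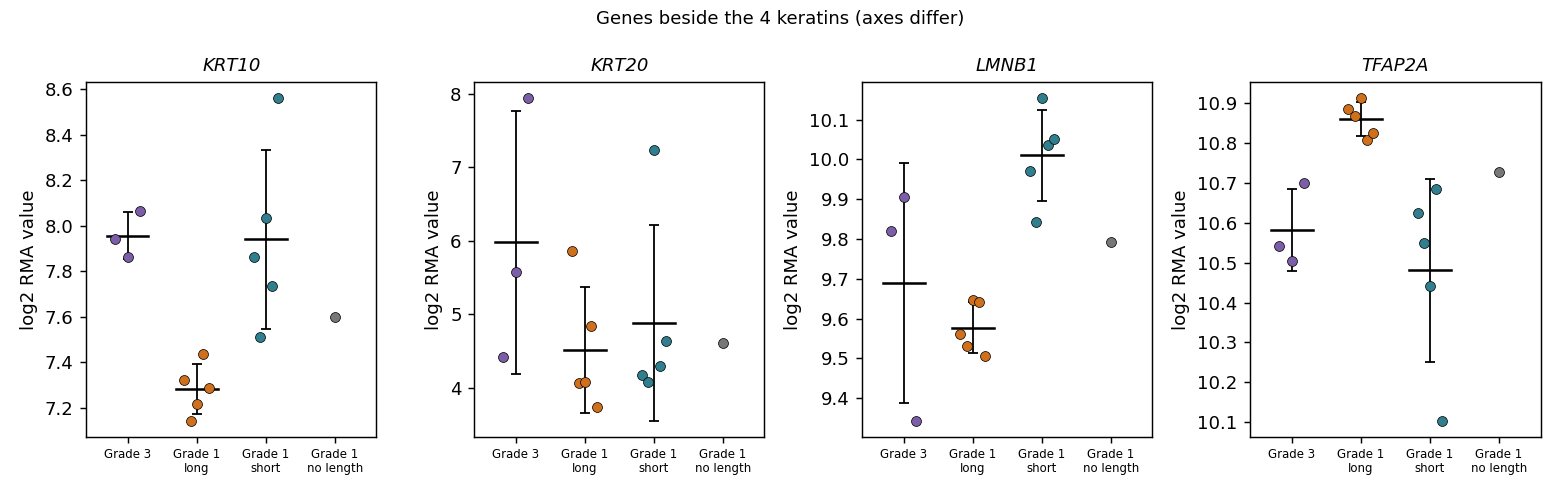
Log2 RMA values (vertical axes, which differ) of KRT10, KRT20, LMNB1 and TFAP2A in every conceptus by group; points are conceptuses, lines means and bars the SD. Long conceptuses lay below all short ones for KRT10 and LMNB1 and above all short ones for TFAP2A, while KRT20 had single high values in Grade 3 and in short conceptuses.

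Genes with the pattern most like each keratin were named from 7952 brighter probe sets by Pearson's r over the 14 arrays, as a description without a test. For KRT19 these were STT3B, a subunit of the oligosaccharyl transferase (r = 0.96, Spearman's rho = 0.91), the membrane-curving actin regulator MTSS1 (0.95 and 0.93) and LMNA (0.95 and 0.89), and the most opposite was the splicing factor HNRNPM (-0.95 and -0.87). LMNA is the lamin described above. With long replicate 2 and short replicate 5 left out, r was still 0.94, 0.95 and 0.95 for these 3 and -0.91 for HNRNPM. None of the 4 passed for length; their adjusted p ran from 0.0539 to 0.156.

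For KRT18 the closest were VPS41, of endosomal traffic (r = 0.93, rho = 0.93), SLC22A23 (0.85 and 0.87) and the tetraspanin TSPAN6 (0.81 and 0.67), and the most opposite COA5 (-0.89 and -0.86). For KRT7 they were the cation chloride cotransporter SLC12A4 (0.90 and 0.68), the interferon regulatory factor IRF5 (0.86 and 0.86) and the mitochondrial dioxygenase ETHE1 (0.85 and 0.84). The most opposite to KRT7 was GRHL1 (-0.85 and -0.81), a grainyhead factor of the list of keratin-related factors, whose 2 probe sets differed in sign for length. GRHL1 was highest, at 11.87, in short replicate 5, where KRT7 was lowest, and with that array and Grade 3 replicate 3 left out r was -0.68.

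The likeness of other genes to KRT8 did not hold without 2 arrays. FAF2, RNASEH1 and TXNL1 had r of 0.93, 0.89 and 0.87 with it but rho of 0.30, 0.33 and 0.40, and with long replicate 2 and short replicate 5 left out r was 0.06, 0.07 and 0.23. POFUT2, the most opposite, had r of -0.83 over all arrays and -0.44 without those 2.

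The RefSeq table of assembly ARS-UCD2.0 places KRT18, KRT8 and KRT7 on chromosome 5, in the cluster of type II keratins, with KRT18 as a type I gene beside KRT8. No protein-coding gene lies between KRT18 and KRT8 (0 genes), and 32 lie between KRT8 and KRT7. EIF4B, a translation initiation factor on the other side of KRT18, had a long minus short difference of -0.00417. KRT78 and KRT79, next after KRT8, stood at 0.03 and -0.19. None of these passed. KRT14, which follows KRT19 after KRT9 on chromosome 19, is given above.

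Markers of other cell types were read beside the KRT19 difference, with 9.5% of all genes passing for length. The mean level of 8 measured endometrial epithelium markers was 4.16 to 4.38 in long and 4.07 to 4.34 in short conceptuses, and 0 of the 8 passed. The 12 trophoblast markers averaged 11.18 to 11.53 in long and 10.31 to 11.21 in short conceptuses; 2 rose, PAG12 by 3.15 and TKDP2 by 0.95, and 0 fell. The 12 hypoblast markers averaged 6.73 to 6.90 in long and 6.77 to 7.11 in short conceptuses. APOA1, RBP4 and COL4A1 were higher and PDGFRA lower, a sign that 2 of the 3 PDGFRA probe sets had. The 3 epiblast markers averaged 5.56 to 5.99 in long and 5.94 to 6.44 in short conceptuses, with DNMT3B lower in 1 of its 2 probe sets. The mesoderm and stroma, blood and immune, and endothelium lists averaged 4.80 to 4.94, 4.33 to 4.51 and 3.90 to 4.05 in long and 4.83 to 5.06, 4.44 to 4.61 and 3.92 to 4.03 in short conceptuses, with THY1 and PECAM1 higher and CD8A and SOX18 lower. Their part in the KRT19 difference was not tested. For grade, 0 genes of these lists passed, and the trophoblast markers averaged 11.09 to 11.16 in Grade 3 and 10.31 to 11.53 in Grade 1.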

How the data were processed

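The arrays were deposited as log2 values per probe set; the submitters' processing notes name RMA and Affymetrix Expression Console. The version of each is not given in the sources used here, nor is whether all arrays were processed as one set. RMA corrects background, quantile-normalises and summarises on the log2 scale, which compresses differences at both ends and removes a shift of all genes. Of 24128 probe sets, 112 controls were left out. Symbols came from the platform annotation: 13292 probe sets had 1, 86 several and 10638 none; 13263 matched RefSeq by Entrez number. Arrays carry no depth; their number limits precision.

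Groups came from the labels. For 1 conceptus the labels disagree on length; its length characteristic (short) gives the 5 and 5 of the design text. That text names 4 Grade 1 conceptuses for grade without saying which, so all 11 were used. Tests were limma 3.58.1 (lmFit, eBayes) in R 4.3.3, two-sided, with Benjamini-Hochberg adjustment over 24016 probe sets and a threshold of 0.05, checked on simulated data. Intervals are 95%. List genes were read from their brightest probe set. Of each list, called members (at most 4) or else the 1 with the smallest p were to be named; KRT14, KRT5, KRT15, VIM and the tissue check genes were named after their values were seen. The 4 keratins and all lists were chosen with earlier results of these data known. Alternatives were normalisation, centring, a filter on dim probe sets, moderation, the call rule, 1 value a gene, sex, title number, the disputed conceptus and each conceptus left out. The planned test between probe sets of a gene ran on 4137 pairs and held 0 pairs of these keratins.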

Additional observations from a re-analysis of the deposited data

Results flagged for a closer look

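KRT8 in Grade 1 long replicate 2 measured 5.33, far below the other long conceptuses and also far below the other females, by the gap to the nearest value relative to the range. KRT7 in Grade 1 short replicate 5 measured 8.37 and stood as far below the other females. These were 3 flags in 16 group tests of the 4 keratins, of which 2 are the same KRT8 value. Chance flags about 1 in 20 groups, but these tests share conceptuses and are not independent. Long replicate 2 was the far low value of its group in 265 of 24016 probe sets, against 92 to 170 for the other long conceptuses, and short replicate 5 in 203, against 61 to 187 for the other short ones. These arrays are also those with the lowest mean correlation with the rest. Long replicate 2, which also held the highest KRT19 value, had the highest actin 3′ minus 5′ signal of all arrays, 1.84. Its GAPDH control signal, taken in the same way, was -0.02, inside the long range of -0.03 to 0.03. Short replicate 5 had an actin signal of 1.65, below the 1.75 of short replicate 1. What part the correlation or the RNA measure had in the low values was not tested.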

How the results depend on the processing

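The number of the 4 keratins called was 0 in 81 of 82 repeats over the 5 comparisons and 1 (KRT19) in the other, limma with trend and robust moderation for length. Of 328 repeated differences of single keratins, 313 kept direction and side of the threshold; none of those that changed sign passed. With quantile normalisation once more, KRT18 turned to -0.0658 for length and -0.0155 for Grade 3 against short Grade 1, and KRT7 to 0.0148 in that same comparison of Grade 3 with short. Centring turned KRT18 to -0.00435 for length and ended the call of TFAP2A (adjusted p = 0.0523). With 1 conceptus left out, the range for length was -0.0732 to 0.19 for KRT7 and -0.21 to 0.0458 for KRT8, and for grade -0.14 to 0.14 for KRT7 and -0.00855 to 0.17 for BFSP2. For Grade 3 against long it was -0.20 to 0.0829 for KRT7 and -0.00396 to 0.25 for KRT8, and against short -0.18 to 0.16 for KRT7 and -0.00739 to 0.0705 for KRT8. Without the 2 arrays of lowest correlation, chosen after seeing the data, KRT7 was -0.0632 for length, and KRT10, LMNB1 and TFAP2A lost their calls (adjusted p = 0.0797, 0.0577 and 0.1). With the title number as a fixed block, which only 2 numbers inform, adjusted p was 0.145, 0.11 and 0.14 for these, and 0.113, 0.0616 and 0.0772 with the disputed conceptus counted as long. The causes were not tested. No paired analysis was possible because the labels give no replicate numbers that pair conceptuses; the title number, which covers both lengths in 2 cases, was used as a block instead.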
